A study of Homo sapiens with 12 samples.

Results

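The keratins of simple epithelium described here are KRT7, KRT8, KRT18, KRT19, KRT20, KRT23 and KRT80. They were chosen by symbol, through the Ensembl gene identifier of each row, and make up 7 of the 58721 genes in the table. Their levels were read from RNA sequencing of human cell lines, HT-29 from a colorectal cancer and LAD2 of mast cells. The groups were HT-29 after 12 hours of direct contact with LAD2, HT-29 kept alone, LAD2 after the same contact with HT-29, and LAD2 kept alone, with 3 columns each. The title of the series asks whether mast cells push colorectal cancer cells towards a mesenchymal state, in which epithelial cells classically lose keratins and gain vimentin. Each line is a single established line, no group carries a genetic change named in the labels, and LAD2 and HT-29 were maintained in different media. The coculture medium and the way the lines were taken apart before extraction are not stated in the labels, so medium and contact cannot be told apart. The 3 columns of LAD2 coculture held identical counts for every gene and were counted as 1 library, so 10 libraries remained.

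Keratins are intermediate filament proteins, and a filament forms only from a type I and a type II chain together. Simple epithelia, such as the lining of the gut, build their filaments mainly from the type II chain KRT8 with the type I chain KRT18, and cells that lack the partner degrade the unpaired chain. KRT19 is a further type I chain without the usual tail, and KRT20 is a type I chain of differentiated gut epithelium that pathologists use, together with KRT7, to assign the origin of carcinomas. Mast cells are haematopoietic cells, whose main intermediate filament is vimentin.

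In GENCODE annotation on GRCh38, the 3 type II genes KRT80, KRT7 and KRT8 and the type I gene KRT18 lie on chromosome 12, while KRT20, KRT23 and KRT19 lie on chromosome 17. KRT80 spans chr12:52168996-52192000 on the minus strand. KRT7 spans chr12:52232520-52252186 on the plus strand. KRT8, at chr12:52897187-52949954 on the minus strand, and KRT18, at chr12:52948871-52952901 on the plus strand, share 1084 bases in opposite orientation. KRT20, at chr17:40875941-40885227, KRT23, at chr17:40922696-40937634, and KRT19, at chr17:41523617-41528308, are all on the minus strand. KRT19 codes for the shortest chain of the 7, with 400 residues, and KRT8 for the longest, with 483.

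The type I chains can be compared in the coding sequence where the central rod begins, a stretch conserved among keratins. These 48 coding bases are printed because a read can match more than 1 keratin only where their sequences agree. They come from the GENCODE transcripts, 5′ to 3′, and capitals mark the bases that differ from KRT18.
KRT18: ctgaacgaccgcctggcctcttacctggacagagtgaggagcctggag
KRT19: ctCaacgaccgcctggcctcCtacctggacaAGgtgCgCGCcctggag
KRT20: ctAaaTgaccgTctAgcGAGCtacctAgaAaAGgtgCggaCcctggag
KRT23: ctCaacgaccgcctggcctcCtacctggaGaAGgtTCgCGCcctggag
KRT19 differed from KRT18 at 8 of the 48 bases, KRT23 at 10 and KRT20 at 14. Over the aligned coding sequences KRT7 and KRT8 were the closest pair, 75.6% identical. Processed pseudogenes come closer: KRT8P3 was 97.1% identical to the coding sequence of KRT8.

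The HT-29 coculture libraries held 18372084 to 29576600 counts and the HT-29 alone libraries 17229788 to 34142465 counts, while the LAD2 coculture library held 25367851 counts and the LAD2 alone libraries 20512127 to 22612798 counts. A level is given below as CPM, the counts of a gene scaled by all counts of its library, and 3 counts correspond to 0.0879 to 0.174 CPM in these libraries. The labelled lines carried most of their markers. The 22 mast cell markers summed to 313 to 343 CPM in HT-29 coculture, against 53.5 to 55.1 CPM in HT-29 alone, and to 22614 CPM in LAD2 coculture, against 22998 to 23246 CPM in LAD2 alone. The 20 epithelial markers other than keratins summed to 4287 to 4304 CPM in HT-29 coculture, against 4303 to 4320 CPM in HT-29 alone, and to 336.4 CPM in LAD2 coculture, against 124.5 to 125.2 CPM in LAD2 alone. Transcripts typical of the other line were thus present in each coculture library. Single genes weighed on the sums. SPINT1, an epithelial marker, had 122.6 CPM in LAD2 alone. GATA2 and ALOX5, mast cell markers, had 33.4 and 20.4 CPM in HT-29 alone. In LAD2 alone GATA2 had 868 CPM and ALOX5 only 0.0923 CPM. Estimated over genes abundant in one line and nearly absent from the other, the 3 HT-29 coculture libraries held 1.04%, 1.09% and 1.19% of LAD2 RNA, and the LAD2 coculture library held 5.25% of HT-29 RNA.

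In HT-29, KRT8, KRT18, KRT19, KRT20 and KRT80 were abundant, KRT7 was low and KRT23 was lower still, at 0.599 to 1.17 CPM. KRT8 was the most abundant member, with 6138, 6165 and 6094 CPM in HT-29 coculture, against 6265, 6365 and 5991 CPM in HT-29 alone. KRT18, its filament partner, had 3780, 3827 and 3716 CPM in HT-29 coculture, against 3730, 3728 and 3544 CPM in HT-29 alone. For both genes the libraries of the groups overlapped.

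**Figure D1:**
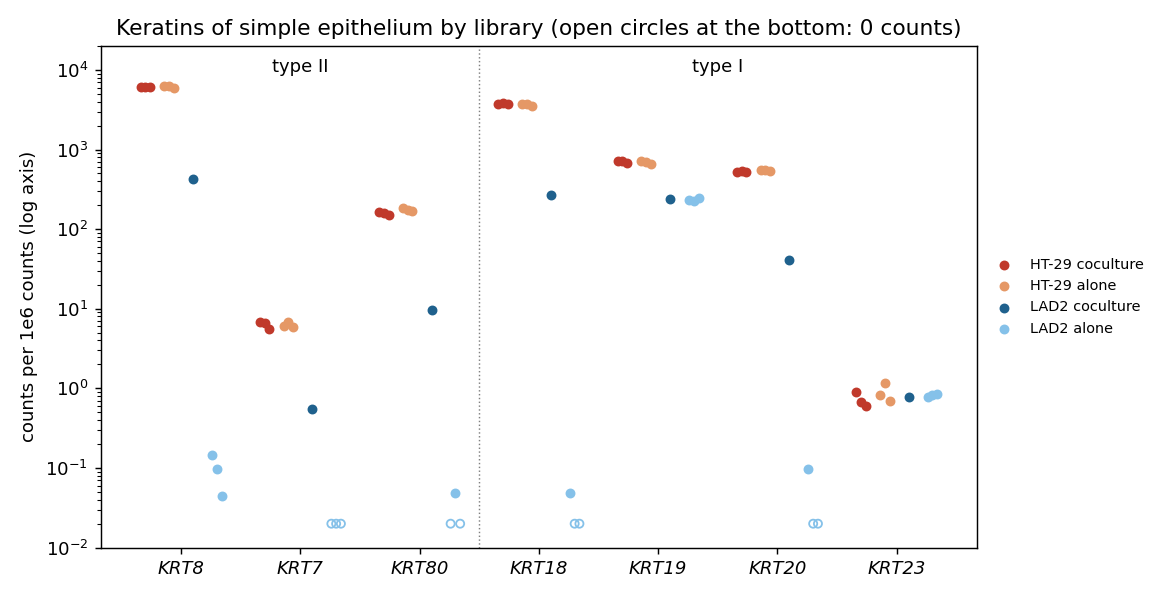
CPM (log axis) of the 7 keratins in each of the 10 libraries, type II genes on the left and type I genes on the right, with a point per library coloured by group and open circles at the bottom for 0 counts. KRT19 and KRT23 were detected in every library of both lines, while KRT8, KRT18, KRT20, KRT80 and KRT7 stood at 0.146 CPM or lower in every LAD2 alone library.

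Levels of different genes were compared per kilobase of the principal transcript. On that scale the order in HT-29 was KRT8, KRT18, KRT19, KRT20, KRT80, KRT7 and KRT23 in coculture as well as alone, and no library of a gene overlapped those of its neighbour in the order. The level of KRT8 was 3258 CPM per kb in HT-29 coculture and 3298 CPM per kb in HT-29 alone. KRT18 had 2416 CPM per kb in coculture and 2348 CPM per kb alone. At the other end of the order, KRT23 had 0.368 CPM per kb in coculture and 0.451 CPM per kb alone. The first place depends on the length: over all annotated exons, which amount to 4581 bases for KRT8 and 2009 for KRT18, KRT18 came before KRT8.

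The type II and type I chains were nearly balanced in HT-29. Summed per kilobase of transcript, type II over type I was 1.02, 1.01 and 1.04 in HT-29 coculture, against 1.05, 1.07 and 1.06 in HT-29 alone. The coculture libraries were lower and did not overlap with those grown alone, with means of 1.02 ± 0.0113 in coculture and 1.06 ± 0.0116 alone (SD, n = 3 each). The exact permutation test (two-sided) gave p = 0.1, the smallest that 3 against 3 libraries allow, and 0.167 after Benjamini-Hochberg adjustment over the 5 ratios tested. Per coding length the ratio was 1.11 in coculture and 1.15 alone, and per length of all exons 0.514 in coculture and 0.531 alone, so the balance near 1 is a property of the transcript length used.

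**Figure D2:**
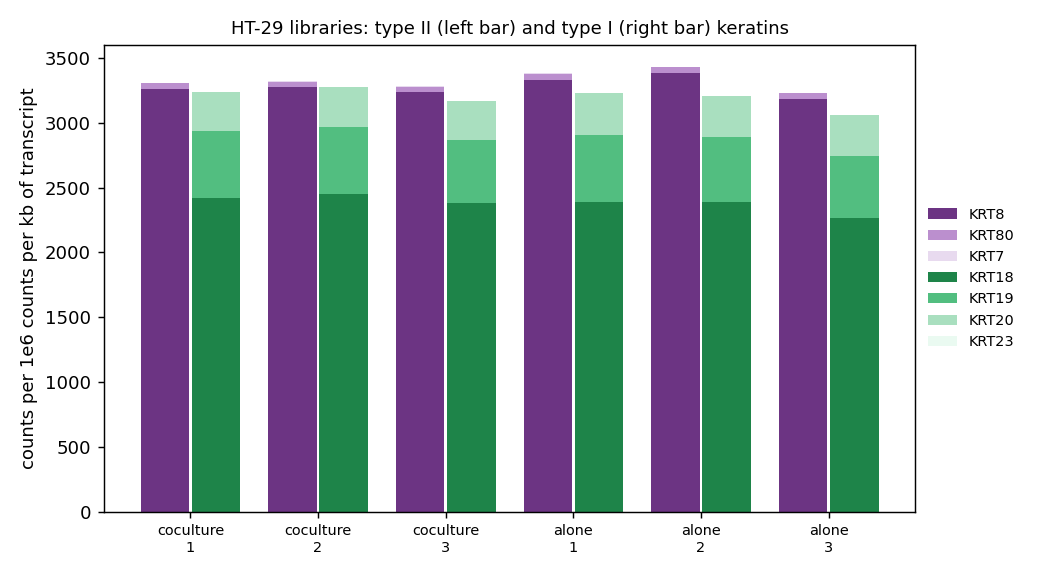
Stacked levels per kilobase of principal transcript in the 6 HT-29 libraries, coculture on the left and alone on the right, with the type II genes (KRT8, KRT80, KRT7) in the left bar of each pair and the type I genes (KRT18, KRT19, KRT20, KRT23) in the right bar. The left bar is slightly taller than the right in every library, with ratios of 1.01 to 1.04 in coculture and 1.05 to 1.07 alone.

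HT-29 coculture was set against HT-29 alone to see whether the keratins of the cancer line moved within 12 hours. All 7 keratins passed the filter on low counts. KRT80 and KRT20 fell, none rose, and the other 5 did not pass the threshold of an adjusted p of 0.05 in edgeR's quasi-likelihood test. Of all 14070 genes tested, 8.76% were called, 5.83% higher and 2.94% lower. The median log2 fold change was -0.03 over the 7 keratins and 0.00 over all genes. In bulk RNA such as this, fewer cells that make a transcript and less of it per cell cannot be told apart.

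KRT80 is a type II keratin found near the desmosomes and the margin of differentiating epithelial cells. It had 162.0, 159.0 and 150.6 CPM in HT-29 coculture, against 183.7, 172.0 and 171.5 CPM in HT-29 alone. Every coculture library was below every library grown alone. The log2 fold change was -0.17 (SE 0.0275, 95% interval -0.22 to -0.11), with an adjusted p of 1.31e-05 by edgeR.

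KRT20 had 524.5, 530.1 and 519.9 CPM in HT-29 coculture, against 557.8, 545.3 and 542.9 CPM in HT-29 alone. Again the groups did not overlap, as was the case with coculture lower for 7.83% of the genes tested and with coculture higher for 15.6%. Its log2 fold change was -0.08 (SE 0.0201, 95% interval -0.12 to -0.04, edgeR adjusted p = 0.00802). Both decreases were small, with a ratio of mean CPM, coculture over alone, of 0.957 for KRT20 and 0.895 for KRT80. With the LAD2 share of each coculture library subtracted, KRT80 was still called, at -0.15 (adjusted p = 5.41e-04), while KRT20, at -0.06, was not (adjusted p = 0.128).

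**Figure D3:**
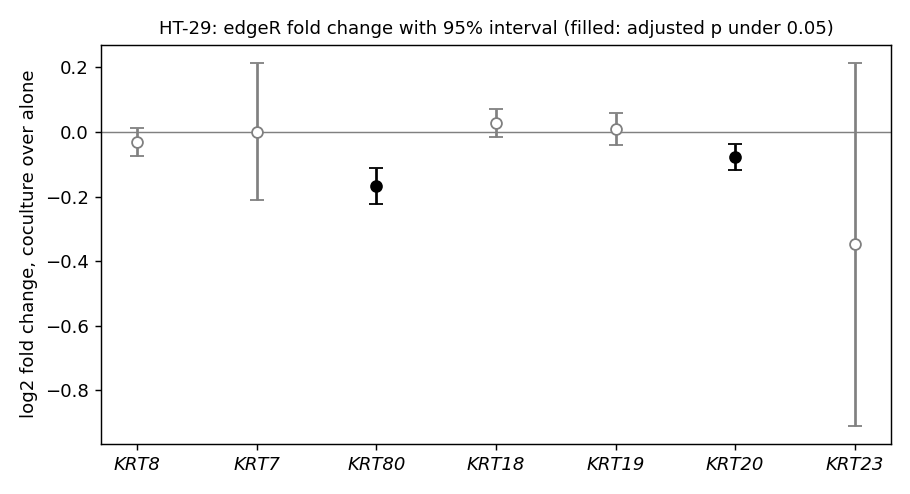
Log2 fold change of each keratin, HT-29 coculture over HT-29 alone (vertical axis), from edgeR with its 95% interval, filled where the adjusted p is under 0.05. KRT80 (-0.17) and KRT20 (-0.08) lie below 0, and the intervals of the other 5 include 0.

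The chains of the main filament pair were close to their level without LAD2. KRT8 averaged 6132 ± 36.0 CPM in HT-29 coculture and 6207 ± 194 CPM in HT-29 alone (SD, n = 3 each). Its log2 fold change was -0.03, with a 95% interval of -0.07 to 0.01 (edgeR adjusted p = 0.455). KRT18 averaged 3774 ± 55.8 CPM in coculture and 3667 ± 107 CPM alone, a log2 fold change of 0.03 with an interval of -0.02 to 0.07 (adjusted p = 0.524).

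KRT19 had 714.4, 723.5 and 677.9 CPM in HT-29 coculture, against 719.1, 700.0 and 663.8 CPM in HT-29 alone. The libraries overlapped, and the log2 fold change of 0.01 had an interval of -0.04 to 0.06 (edgeR adjusted p = 0.889). KRT7, the type II keratin of ducts and glands, was low, at 6.83, 6.61 and 5.50 CPM in coculture, against 6.14, 6.74 and 5.86 CPM alone. Its log2 fold change of 0.00 had an interval of -0.21 to 0.21 (adjusted p = 0.999). KRT23, a type I keratin, had 0.913, 0.682 and 0.599 CPM in coculture, against 0.818, 1.17 and 0.696 CPM alone. Those levels rest on 54 counts in coculture and 68 alone, and the interval of its log2 fold change, -0.91 to 0.21, leaves room for changes in either direction (adjusted p = 0.547).

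Ratios within a library do not depend on its depth. KRT8 counts over KRT18 counts came to 1.62, 1.61 and 1.64 in HT-29 coculture, against 1.68, 1.71 and 1.69 in HT-29 alone. The groups did not overlap, with means of 1.63 ± 0.0145 in coculture and 1.69 ± 0.0139 alone (SD, n = 3 each). The exact permutation p was 0.1, the smallest possible, and 0.167 after adjustment over the 5 ratios. Whether reads were counted by strand is not stated, and reads from the 1084 bases that KRT8 and KRT18 share could not be assigned by strand in an unstranded library. Their part in the ratio was not tested.

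KRT80 counts over KRT8 counts were 0.0264, 0.0258 and 0.0247 in HT-29 coculture, against 0.0293, 0.0270 and 0.0286 in HT-29 alone, again without overlap (exact permutation p = 0.1, adjusted p = 0.167). KRT20 over KRT8 was 0.0854, 0.0860 and 0.0853 in coculture, against 0.0890, 0.0857 and 0.0906 alone. Those libraries overlapped (exact permutation p = 0.2). KRT19 over KRT18 averaged 0.187 ± 0.00381 in coculture and 0.189 ± 0.00306 alone (SD, n = 3 each), with overlap (exact permutation p = 0.6).

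**Figure D4:**
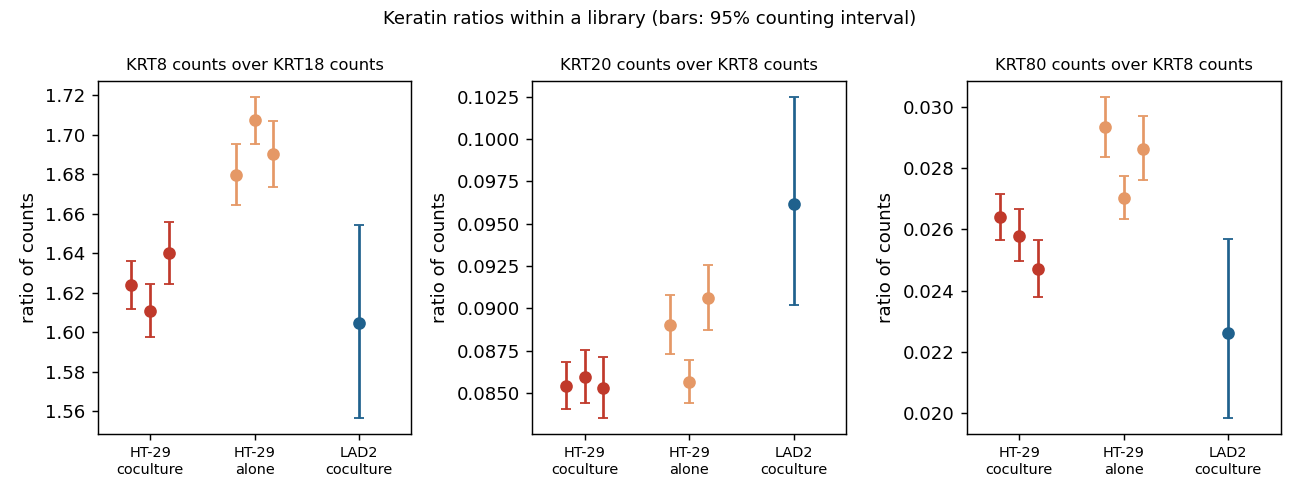
Ratio of the counts of 2 keratins within each library (vertical axes, which do not start at 0), for HT-29 coculture, HT-29 alone and the LAD2 coculture library, with 95% counting intervals. KRT8 over KRT18 and KRT80 over KRT8 were lower in all 3 HT-29 coculture libraries than in any HT-29 alone library, and the LAD2 coculture library stood at 1.60 and 0.0226.

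The sequence before the KRT20 start is shown because KRT20 was called in HT-29 coculture and marks gut epithelium, where CDX factors drive many intestinal genes. The promoter table from RefSeq matched KRT20 and KRT8 among the 7 keratins. The 250 bases before the KRT20 start lie at chr17:40885243-40885492 in GRCh38.p14, on the minus strand, and capitals mark TTTAT or its reverse complement ATAAA, the core bound by CDX proteins.
KRT20: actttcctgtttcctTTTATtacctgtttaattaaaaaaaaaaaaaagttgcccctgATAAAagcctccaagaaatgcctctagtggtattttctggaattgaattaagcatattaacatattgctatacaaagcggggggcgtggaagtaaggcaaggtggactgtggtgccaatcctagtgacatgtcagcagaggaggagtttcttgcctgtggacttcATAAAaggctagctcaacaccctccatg
The 3 matches start at positions -235, -193 and -28 from the start. At least 1 match on either strand was held by 32.7% of the 35116 promoters of the same length. The share of promoters with as many as 3 matches was not computed. TATAAA, searched on both strands as well and held by 10.7% of promoters, is not among these letters. TATAAA itself ends in ATAAA, and variants of it were not searched. The match at -28 is thus not shown to be a CDX site rather than a TATA-like one, and binding was not tested. The 250 bases before the KRT8 start in RefSeq, at chr12:52926470-52926719 on the minus strand, held neither motif. This start lies inside the KRT8 span given above, and other KRT8 starts were not searched. A TTTAT that overlaps a TATAAA would count for both. CDX2 was at 2.36 ± 0.207 CPM in HT-29 coculture and 2.28 ± 0.491 CPM in HT-29 alone (SD, n = 3 each), with a log2 fold change of -0.02 (edgeR adjusted p = 0.965).

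LAD2 cells grown alone expressed 1 keratin of this family at an appreciable level, KRT19, with 232.1, 224.4 and 248.1 CPM. KRT23 was detected at 0.780, 0.818 and 0.840 CPM. The rest stood at or near 0 in LAD2 alone. KRT8 had 3, 2 and 1 counts, KRT18 had 1, 0 and 0, KRT20 had 2, 0 and 0, KRT80 had 0, 1 and 0, and KRT7 had none. Per kilobase, KRT19 led in LAD2 alone with 169.0 CPM per kb, followed by KRT23 with 0.409 and KRT8 with 0.0508. The libraries of KRT8, KRT20, KRT18, KRT80 and KRT7 overlapped with those of their neighbours in the order.

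Set against LAD2 alone, HT-29 alone was higher for 6 of the 7 keratins, where 92.4% of the 15830 genes tested were called, 44.9% higher and 47.5% lower. Of these 6, KRT7, KRT8, KRT18, KRT20 and KRT80 passed the filter only through HT-29. KRT19 was 2.96-fold higher, with a mean of 694.3 ± 28.1 CPM for HT-29 alone and 234.9 ± 12.1 CPM for LAD2 alone (SD, n = 3 each; log2 fold change 1.58, SE 0.0426, edgeR adjusted p = 6.3e-32). For KRT7 the absence of counts in LAD2 alone gives a lower bound, at least 135-fold higher against 3 counts over the LAD2 alone group. KRT23 is the exception, with 0.895 ± 0.247 CPM for HT-29 alone and 0.813 ± 0.0305 CPM for LAD2 alone (log2 fold change 0.24, adjusted p = 0.415).

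For LAD2, the comparison rests on 1 coculture library, which the fit assumes to vary like LAD2 alone. Of the 15821 genes tested, 20.8% were called, 14.1% higher and 6.75% lower. KRT8, KRT18, KRT20 and KRT80 were called higher, and these 4 passed the filter on low counts only through the coculture library. KRT19 and KRT23 were tested and not called. KRT7, with 14 counts in the coculture library and 0 in LAD2 alone, failed the filter and was at least 11.8-fold higher against 3 counts over the LAD2 alone group.

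The levels in LAD2 coculture were 428.7 CPM for KRT8, 267.1 for KRT18, 41.2 for KRT20, 9.70 for KRT80 and 0.552 for KRT7. As the LAD2 alone libraries held 6 KRT8 counts in all, the ratio of LAD2 coculture to LAD2 alone was 4566, with a 95% counting interval of 2097 to 12446. The corresponding ratios were 17072 for KRT18 (3063 to 674403), 1317 for KRT20 (364 to 10893) and 620 for KRT80 (110 to 24575). Such intervals cover counting error only, since reads without molecular identifiers are not independent molecules.

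These levels were set beside those of other genes typical of HT-29 in the same library. Over 323 other genes at 50 CPM or more in HT-29 alone and at most 0.5 CPM in LAD2 alone, the LAD2 coculture level was a median 5.25% of the HT-29 alone level, with quartiles of 4.41% and 6.09% and a range of 1.54% to 11.6%. KRT8 stood at 6.91% of its HT-29 alone level (95% interval 6.78% to 7.04%), above 90.4% of those genes. KRT18 stood at 7.28% (7.11% to 7.46%), above 94.4% of them. KRT20, at 7.52% (7.07% to 7.98%), lay above 96.6%.

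All 3 of these keratins were within the range of the 323 genes and in its upper part. KRT80, at 5.52% (4.85% to 6.25%), lay above 59.1% of the genes. KRT7, at 8.84%, has an interval of 4.83% to 14.8%, which includes the median of the genes. In units of a mixture of LAD2 alone with 5.25% HT-29 alone, the LAD2 coculture library held 1.32 times the KRT8 level, 1.39 times that of KRT18, 1.43 times that of KRT20 and 1.05 times that of KRT80. Subtracting a single share of 5.25% leaves a remainder for any gene above the median, as KRT8, KRT18 and KRT20 were, so their calls after subtraction carry no further information, and KRT80 no longer passed the filter. With 1 library, RNA from HT-29 and transcription in LAD2 cells cannot be told apart by these counts.

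**Figure D5:**
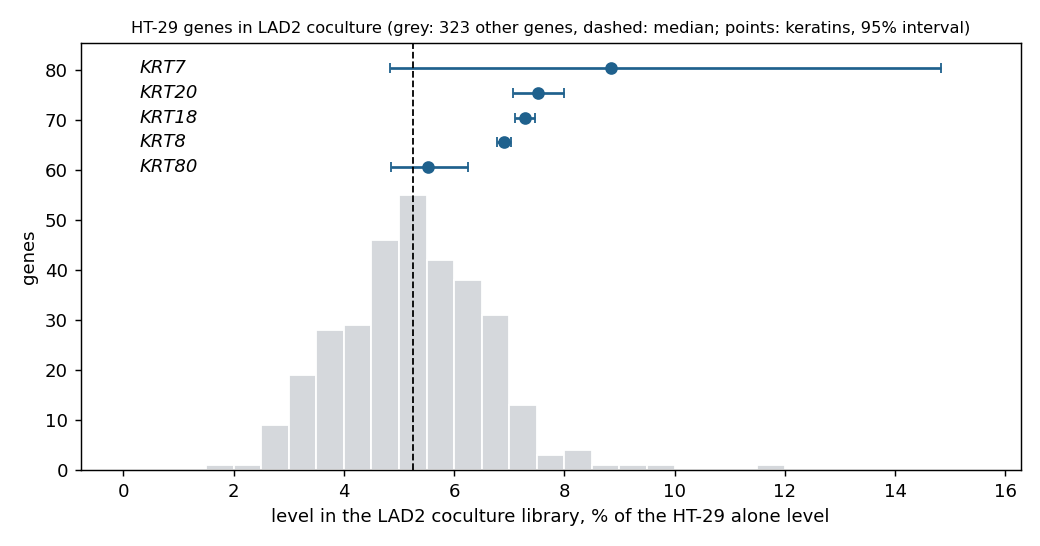
Level in the LAD2 coculture library as a percentage of the HT-29 alone level (horizontal axis) for 323 other genes abundant in HT-29 and nearly absent from LAD2 alone (grey, number of genes on the vertical axis, dashed line at the median of 5.25%), with 5 keratins above as points with 95% counting intervals. KRT8, KRT18 and KRT20 lie in the upper part of the distribution, and KRT80 near its middle.

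The ratios among the keratins of the LAD2 coculture library were set beside those of HT-29. KRT8 over KRT18 was 1.60 there (95% counting interval 1.56 to 1.65), beside 1.61 to 1.64 in HT-29 coculture and 1.68 to 1.71 in HT-29 alone. KRT80 over KRT8 was 0.0226 (0.0199 to 0.0257), beside 0.0247 to 0.0264 in HT-29 coculture and 0.0270 to 0.0293 in HT-29 alone. KRT20 over KRT8 was 0.0962 (0.0902 to 0.102), beside 0.0853 to 0.0860 in HT-29 coculture and 0.0857 to 0.0906 in HT-29 alone. The intervals of KRT8 over KRT18 and KRT80 over KRT8 thus lay below every HT-29 alone library. That of KRT20 over KRT8 lay above every HT-29 coculture library. KRT19 over KRT18, where LAD2 has KRT19 of its own, was 0.898 in LAD2 coculture, against 0.182 to 0.189 in HT-29 coculture. Type II over type I per kilobase of transcript, with KRT19 among the type I genes, was 0.627 in LAD2 coculture. It was 1.01 to 1.04 in HT-29 coculture.

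KRT19 itself had 239.8 CPM in LAD2 coculture, against 232.1, 224.4 and 248.1 CPM in LAD2 alone, inside the range of the libraries grown alone. Its log2 fold change was 0.02 (SE 0.0658, 95% interval -0.11 to 0.15, edgeR adjusted p = 0.886). The mixture with 5.25% HT-29 RNA would hold 259.0 CPM, and the observed level was 0.926 of that (95% counting interval 0.903 to 0.950). After the share was subtracted the log2 fold change was -0.13 (adjusted p = 0.252). KRT23 had 0.788 CPM in LAD2 coculture, near the LAD2 alone libraries (log2 fold change -0.05, adjusted p = 0.957).

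The pattern of KRT8 over the 10 libraries was most like that of KRT18 among 8940 genes, with a root mean square difference of 0.308 in log2(CPM + 0.5), each gene taken relative to its HT-29 alone mean. The next genes after it were MET, a growth factor receptor, at 1.43, and MAL2, a membrane traffic protein of epithelia, at 1.54. For KRT20 the nearest genes were KLK6, a secreted protease, at 0.111, SPINT2, a protease inhibitor of epithelia, at 0.153, and GPX2, a gut glutathione peroxidase, at 0.163. This likeness is dominated by the gap between the lines, which these libraries share. All of these genes averaged 0.33 CPM or less in LAD2 alone, so the gap mainly follows their level in HT-29 alone. There KRT8 had 6207 CPM, beside 3667 for KRT18, 872 for MET and 1250 for MAL2. KRT20 had 548.7 CPM there, beside 492 for KLK6, 593 for SPINT2 and 440 for GPX2. Common regulation was not tested.

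KRT8 and KRT18 have many processed pseudogenes, to which reads can be assigned in their place. The table lists 51 for KRT8, and their counts added up to 0.844% of the KRT8 counts in HT-29 coculture and 0.832% in HT-29 alone. For KRT18 the 68 pseudogenes added up to 0.120% in coculture and 0.133% alone, the most counted being KRT18P11, with 103 counts over all 10 libraries. KRT8P3 followed its parent: it held 0.471% to 0.496% of the KRT8 counts in HT-29 coculture, 0.454% to 0.506% in HT-29 alone and 0.423% in LAD2 coculture, and no count in LAD2 alone. KRT8P12, 90.5% identical to KRT8, did not, with 308 counts in LAD2 coculture and 248, 277 and 282 counts in LAD2 alone, where KRT8 had 1 to 3.

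The table holds 61 other genes with keratin symbols, some of them pseudogenes. Of these, 7 passed the filter in HT-29, the pseudogene KRT89P among them. Only 1 was called, higher in coculture, as were 5.83% of all genes tested. That gene was KRT1, the type II keratin of the upper epidermis. It had 1.96 CPM in each of the 3 HT-29 coculture libraries and no count in HT-29 alone, beside 152.1, 152.8 and 165.0 CPM in LAD2 alone. It passed the filter only through the coculture libraries (edgeR adjusted p = 4.53e-14). Its coculture level was 1.25% of that in LAD2 alone, slightly above the LAD2 share of 1.04% to 1.19%. KRT10, the usual type I partner of KRT1, had 35.8 ± 0.387 CPM in coculture and 38.4 ± 0.679 CPM alone (SD, n = 3 each; adjusted p = 0.107). KRT13, at 6.96 CPM in coculture and 6.03 CPM alone, and KRT15, at 5.11 CPM in coculture and 5.71 CPM alone, were not called either (adjusted p = 0.219 and 0.378).

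In LAD2, 10 of those 61 genes were tested, 3 were called higher in coculture and none lower, where 14.1% of all genes tested were called higher and 6.75% lower. These were KRT13, KRT15 and KRT17, which passed the filter only through the coculture library. They had 0.670, 0.985 and 0.985 CPM in LAD2 coculture, beside 6.03, 5.71 and 6.12 CPM in HT-29 alone. Each is more than 5.25% of its HT-29 alone level, the estimated HT-29 share, but rests on 17 to 25 counts in 1 library. The excess was not tested. KRT17, a type I keratin of stressed and basal epithelia, had 25 counts in LAD2 coculture and 0 in LAD2 alone, and KRT13, of stratified mucosa, had 17 in LAD2 coculture and 0 in LAD2 alone. KRT15, a type I keratin of basal cells, had 25 counts in LAD2 coculture and 7 over the 3 LAD2 alone libraries. KRT1 had 163.1 CPM in LAD2 coculture and 156.6 ± 7.25 CPM in LAD2 alone (SD, n = 3; log2 fold change 0.05, adjusted p = 0.695).

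Among 15 intermediate filament genes other than keratins, 6 were tested in HT-29 and 1 was called, vimentin (VIM), the filament of mesenchymal and blood cells. VIM had 21.0, 20.7 and 22.0 CPM in HT-29 coculture, against 0.562, 0.556 and 1.22 CPM in HT-29 alone. LAD2 alone held 1837 to 1940 CPM, and the gain in HT-29 coculture was 1.08% of that, within the range of the LAD2 share. As deposited, the counts gave a log2 fold change of 4.86 (adjusted p = 2.84e-29), and with the share subtracted one of -0.45 (adjusted p = 0.747).

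The plakins and desmosomal proteins anchor keratin filaments at cell junctions. All 13 were tested in HT-29, where 3 were lower in coculture and 1 higher, beside 2.94% lower and 5.83% higher among all genes tested. DSG2, a desmosomal cadherin, fell to 274.5 ± 6.56 CPM in coculture, against 291.1 ± 5.82 CPM alone (SD, n = 3 each; log2 fold change -0.10, edgeR adjusted p = 9.99e-04). The plakins PPL, with a log2 fold change of -0.13, and DST, with -0.15, were the others that fell (adjusted p = 5.74e-04 and 0.00123). EVPL, the plakin that rose, had 57.9 ± 2.76 CPM in coculture and 51.5 ± 1.39 CPM alone, beside 293.1 CPM in LAD2 alone, with an adjusted p of 0.00877. It was not called after the share was subtracted (adjusted p = 0.303), by DESeq2 (0.124) or without HT-29 coculture replicate 3 (0.0857). The median log2 fold change of the 13 was -0.06, against 0.00 over all genes.

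Of 13 genes that bind keratins or act in their turnover, all tested, 2 fell in HT-29 coculture and none rose, beside 2.94% and 5.83% of all genes tested. YWHAE, a 14-3-3 protein, a family that binds phosphorylated KRT18, had 662.3 ± 13.1 CPM in coculture and 692.4 ± 6.59 CPM alone (SD, n = 3 each; log2 fold change -0.08, edgeR adjusted p = 0.00658). CSNK1A1, a kinase recruited to keratin filaments, had a log2 fold change of -0.08 (adjusted p = 0.0253), and was not called under 5 alternatives. Among these were DESeq2 (adjusted p = 0.196) and the fits without HT-29 coculture replicate 3 (0.170) or HT-29 alone replicate 2 (0.123). YWHAE was not called without HT-29 coculture replicate 1 (0.0632) or 2 (0.0512). Of 23 transcription factors and splicing regulators of epithelia, 20 were tested, 2 rose and 1 fell, beside 5.83% and 2.94% of all genes tested. ELF3, an ETS factor of epithelia, had 60.7, 61.7 and 61.9 CPM in coculture, against 47.6, 53.8 and 53.9 CPM alone (log2 fold change 0.23, adjusted p = 2.84e-05). FOXA1 had a log2 fold change of 0.12 and KLF4 one of -0.16 (adjusted p = 0.00566 and 0.0258), and DESeq2 called neither (adjusted p = 0.105 and 0.299). FOXA1 was not called without HT-29 coculture replicate 1 (adjusted p = 0.0907). KLF4 was not called under 7 alternatives in all, DESeq2 among them. Others were the fits without replicate 1 or 2 of HT-29 coculture or replicate 1 or 3 of HT-29 alone (0.0614 to 0.102).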

How the data were processed

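The authors deposited raw counts per gene for every column, without normalization. Per the submitters' processing notes, FastQC 0.11.9, STAR 2.7.10a and DESeq2 3.24.0 were used with build hg38. Which program and annotation counted the reads, and whether by strand, is not stated. All 58721 identifiers matched GENCODE 29, which supplied symbols, positions, lengths and coding sequences. The matching stretches of the type II keratins are not reported here. The keratins and the gene lists were chosen with earlier results of these data known. Named genes were the 7 keratins, up to 4 genes per list with the smallest p in HT-29, the most counted pseudogene of a keratin and the 3 genes most like KRT8 and KRT20. CDX2, KRT17 and KRT8P12 were named after their values were seen.

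Tests used edgeR 4.0.16 (R 4.3.3): TMM scaling, filterByExpr and the two-sided quasi-likelihood F test, with Benjamini-Hochberg adjustment over all tested genes, fitted per comparison. The procedure was tested on simulated data, with changes larger than those called for KRT20 and KRT80 in HT-29. The labels do not say that replicates are separate cultures, so p-values measure the spread between these libraries. Biological coefficients of variation came to 1.7% (HT-29) and 4.03% (LAD2). The share of the other line is a median over genes at 50 CPM or more there and no more than 0.5 CPM in the studied line, keratins left out. The alternatives were RLE scaling, no filter, DESeq2 1.42.0, a replicate block, the share subtracted, genes 10-fold higher in the other line left out, and each library left out. The subtraction with the HT-29 coculture profile, the ratios by other lengths and the ratios without each library were added after seeing the data. Ratios were compared by exact permutation. Likeness was measured among genes that averaged 10 CPM or more in HT-29 alone. Counting intervals are exact.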

Additional observations from a re-analysis of the deposited data

Results flagged for a closer look

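KRT20 and KRT80 were listed for a closer look because every HT-29 coculture library was below every HT-29 alone library, while the single LAD2 coculture library was above every LAD2 alone library. The log2 fold changes in HT-29, coculture over alone, were -0.077 for KRT20 and -0.17 for KRT80, and KRT20 lost its call with the LAD2 share subtracted (edgeR adjusted p = 0.128). LAD2 alone held 2 counts of KRT20 and 1 of KRT80 in all. The LAD2 coculture library held 1.43 times the KRT20 level of a mixture with 5.25% HT-29 RNA (95% counting interval 1.34 to 1.52). For KRT80 it held 1.05 times that level (0.922 to 1.19). A change within LAD2 cells and RNA from HT-29 cannot be told apart by these values, and the difference between the lines was not tested.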

How the results depend on the processing

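In HT-29, coculture against alone, 1233 genes were called (820 higher, 413 lower). DESeq2 called 806 (633 and 173), the subtracted LAD2 share left 432 (236 and 196), and leaving out genes of LAD2 left 496 (243 and 253). The keratins called were 2 under every alternative except the subtraction, which left 1, KRT80. Without each library in turn the count was 925 to 1270 genes, and the keratins remained at 2; without HT-29 alone replicate 2, 269 genes were called lower. VIM lost its call with the share subtracted, at a log2 fold change of -0.45 (adjusted p = 0.747). In LAD2, 3298 genes were called (2230 and 1068), against 1791 with DESeq2 (1391 and 400), 1583 with the HT-29 share subtracted (902 and 681), 1599 with the HT-29 coculture profile in its place and 1898 without genes of HT-29 (1122 and 776). The last leaves out 5 of the keratins by construction and calls 0 of the remaining 2. Without each LAD2 alone library the count was 2499 to 4447 genes and 4 keratins; without replicate 1, 674 genes were called lower, and without replicate 3, 1674. Between the lines, the counts without each library were 14579 to 14825 genes and 6 keratins. With the replicate number as a block, 1398 genes and 2 keratins were called in HT-29, and 14554 genes and 6 keratins between the lines. Same-numbered HT-29 libraries had deviation correlations of 0.0610, 0.0430 and 0.101, each the highest of its library, but these numbers share no stated source. No paired analysis was possible because LAD2 coculture is 1 library, for that comparison alone. The causes of these changes were not tested. KRT23 and KRT7 are limited by depth, and the LAD2 result by its single library.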
